A study of Mus musculus with 12 samples.

Results

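Cells of the mouse line 3T3-L1 that had gone through standard adipogenic differentiation were compared with undifferentiated cells of the same line, over all genes of a table of unique molecular counts. 3T3-L1 is a line of embryonic fibroblasts that divides as a preadipocyte and turns into fat cells under a hormone cocktail. Of the 12 libraries of the series, 6 were compared, chosen by the names of their columns: 3 of differentiated cells (regular_diff, replicates 4, 5 and 6) and 3 of undifferentiated cells (preadipocyte, replicates 4, 5 and 6), all labelled WT. The regular_diff cells were induced 2 days past confluence. For 2 days they received rosiglitazone at 2 µM, an agonist of the nuclear receptor PPARG, dexamethasone at 1 µM, a glucocorticoid, IBMX at 0.5 mM, which blocks the breakdown of cyclic AMP, and insulin at 1 µg/mL, all in 10% fetal bovine serum. They then had insulin alone for 2 days and went on to maintenance medium with the same serum. The preadipocyte cells were grown in 10% calf serum with no such agent named. The other 6 libraries, of 3T3-L1 cells differentiated with medium from p53 WT or p53 KO WEA breast cancer cells, were not compared. They entered the choice of genes tested, the scaling and the estimate of the spread. The sources used here give neither the day of harvest nor whether replicates were separate cultures, so p-values measure the spread between these libraries, which may be technical. Hormones, the kind of serum, cell density and time in culture differed together and cannot be told apart.

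Fat cells form when growth-arrested precursors first switch on the early factors C/EBP-beta and C/EBP-delta and then PPARG and C/EBP-alpha, which hold each other on and bind next to most genes of lipid storage. The mature cell takes up glucose and fatty acids, builds triglyceride around a lipid droplet coated with perilipins, and breaks it down again through lipases. On the way the cell gives up its fibroblast shape, its actin stress fibres and much of its fibronectin-rich matrix.

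The preadipocyte library of replicate 5 stood apart from the others of its group, so counts of a gene list that it changes are given with and without it, as are fold changes that it moved by over 1.5 times. Total counts were 1387854 to 1801316 in the regular_diff libraries and 1458452 to 1836626 in the preadipocyte libraries. Levels are counts per 1000000 (CPM) of the library's total after scaling by the trimmed mean of M values, listed in the order of replicates 4, 5 and 6. A chi-square per gene, which is 1 where libraries differ by counting noise alone, was 2.06 to 2.43 between regular_diff pairs and 2.49 between preadipocyte replicates 4 and 6, but 6.99 and 6.22 between preadipocyte replicate 5 and each of those. Of the 52 genes with at least 100 CPM in regular_diff that were at least 32-fold above preadipocyte replicates 4 and 6, 42 were higher in preadipocyte replicate 5 than in both other preadipocyte libraries. The median of the excess was 0.889% of the regular_diff mean, with quartiles of 0.444% and 1.55%. Because these genes were chosen by low values in preadipocyte replicates 4 and 6, the choice itself favours a higher replicate 5. No such count was made with replicate 4 or 6 held out instead. Fat cell markers took 4.03, 3.69 and 3.78% of all counts in the regular_diff libraries, against 0.0112, 0.0654 and 0.0129% in the preadipocyte libraries. Hp, which encodes haptoglobin, an acute-phase protein of fat and liver, had an excess of 26.6%, at 424, 419 and 507 CPM in regular_diff, against 8.48, 128.2 and 8.40 CPM in preadipocyte. Its log2 fold change was 3.24 ± 0.84 with preadipocyte replicate 5 and 5.70 ± 0.29 without it, and its call was lost when only the 6 libraries compared were fitted.

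**Figure D1:**
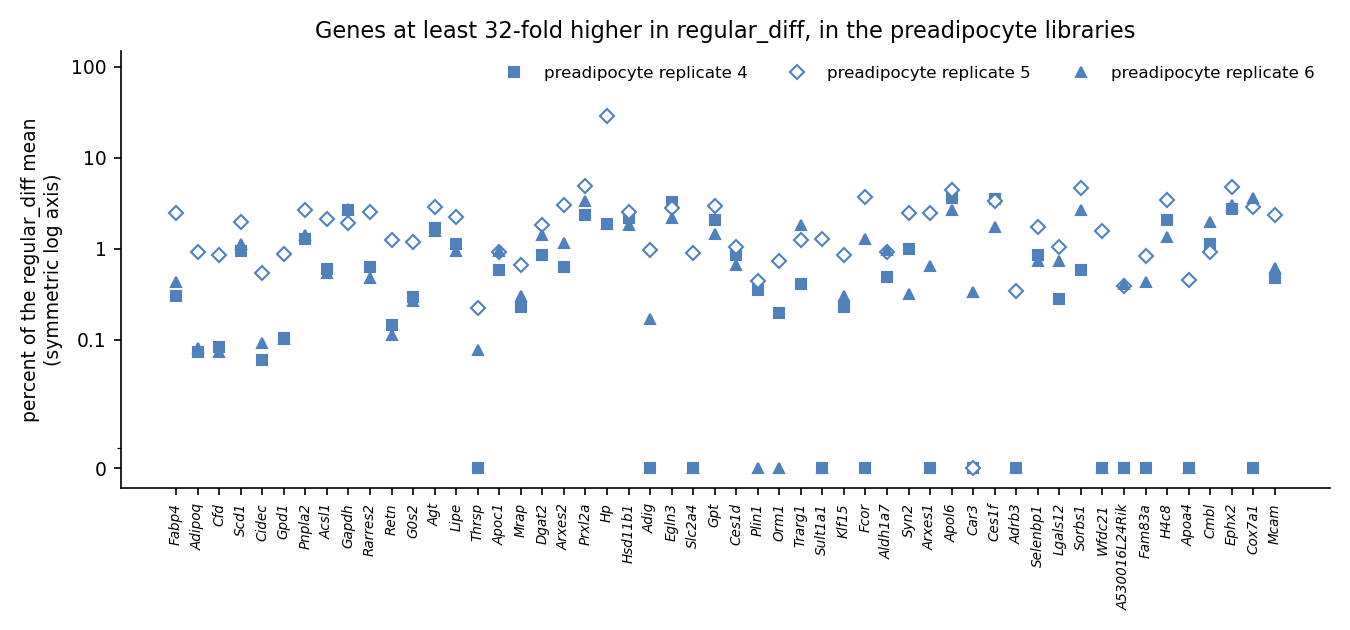
Level of 52 genes in each preadipocyte library (y axis, percent of the mean CPM of the 3 regular_diff libraries, logarithmic above 0.05 and linear below it), for genes of at least 100 CPM in regular_diff and at least 32-fold above preadipocyte replicates 4 and 6, ordered by their regular_diff level from left to right. Open diamonds, preadipocyte replicate 5, lie above both filled symbols for 42 of the 52 genes, with a median of 1.65% of the regular_diff mean. The choice of genes by low values in replicates 4 and 6 itself favours this.

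The same library was low for another set of genes. Of 7401 genes with at least 20 CPM in 1 or more of the 6 libraries, 197 were at least 2-fold lower in preadipocyte replicate 5 than in the mean of the other preadipocyte libraries, and 12 to 32 were that much lower in each of the other 5 libraries against its own group. Ppia, which encodes the folding enzyme cyclophilin A, stood at 149, 133 and 143 CPM in regular_diff, against 183, 9.29 and 238 CPM in preadipocyte. Tmsb4x, which encodes the actin-binding peptide thymosin beta 4, stood at 238, 172 and 255 CPM in regular_diff, against 394, 27.3 and 684 CPM in preadipocyte. In both genes preadipocyte replicates 4 and 6 lay above every regular_diff library and preadipocyte replicate 5 below them, and neither was called. Of the 197 genes 50 were called with preadipocyte replicate 5 and 75 without it, against 51.2% and 50.0% of all genes tested. The 197 were chosen by their low values in that library, so a gain in calls without it can follow from the choice alone. The same 197 had a median departure from their group of 0.09, -0.18 and 0.16 on the log2 scale in regular_diff replicates 4, 5 and 6, and 153 of them lay below the group in regular_diff replicate 5. Genes that share a stretch of their 3′ end with another gene are uncertain, since the sources used here do not say how the counting placed such reads. Of the 391 genes named, 52 shared over 10% of the 31-base stretches of their last 500 bases with a transcript of another gene in the GENCODE vM21 annotation, among them Gapdh, Ppia, Igf2, Cfb, Slc25a5, Aldoa, Pkm, Hspd1, H2-K1, H2-T23, Psme2, Rpl3, Rplp0 and Rplp2.

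About every other gene tested differed between differentiated and undifferentiated cells. With a threshold of 0.05 on edgeR's quasi-likelihood p after Benjamini-Hochberg adjustment, 4873 of 9519 genes tested were called (51.2%), 2362 higher (24.8%) and 2511 lower (26.4%) in regular_diff. Genes are said to have risen or fallen only where they passed that test. Counts of list members are given beside the shares of all genes, 24.8% higher and 26.4% lower. Members and lists were chosen with earlier results of these data known, so these shares are a reference and not a test. At least 2-fold changes were 1276 rises (13.4%) and 1204 falls (12.6%), but at 16-fold or more there were 209 rises (2.20%) and 26 falls (0.273%). Without preadipocyte replicate 5 the test called 4904 of 9814 genes (50.0%), 2332 higher (23.8%) and 2572 lower (26.2%). Of these calls, 4464 were made in both fits and 0 of them had opposite signs, while 409 were made only with preadipocyte replicate 5 and 440 only without it. Over all genes tested the median log2 fold change was -0.06. Scaling by the library total alone moved that median by -0.16 and gave 1909 higher and 3219 lower calls, so that 37.2% of calls were rises, against 48.5% with the main scaling. For named genes the number of the 17 alternative fits in which a call was lost is given where it is above 0. Calls gained in an alternative, 44 of 6378 recomputed values, are given for only some genes. Lists whose balance of rises and falls turned on this are named with both counts. Because each library is a bulk of many cells, fewer cells of a type and less RNA per cell cannot be told apart.

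**Figure D2:**
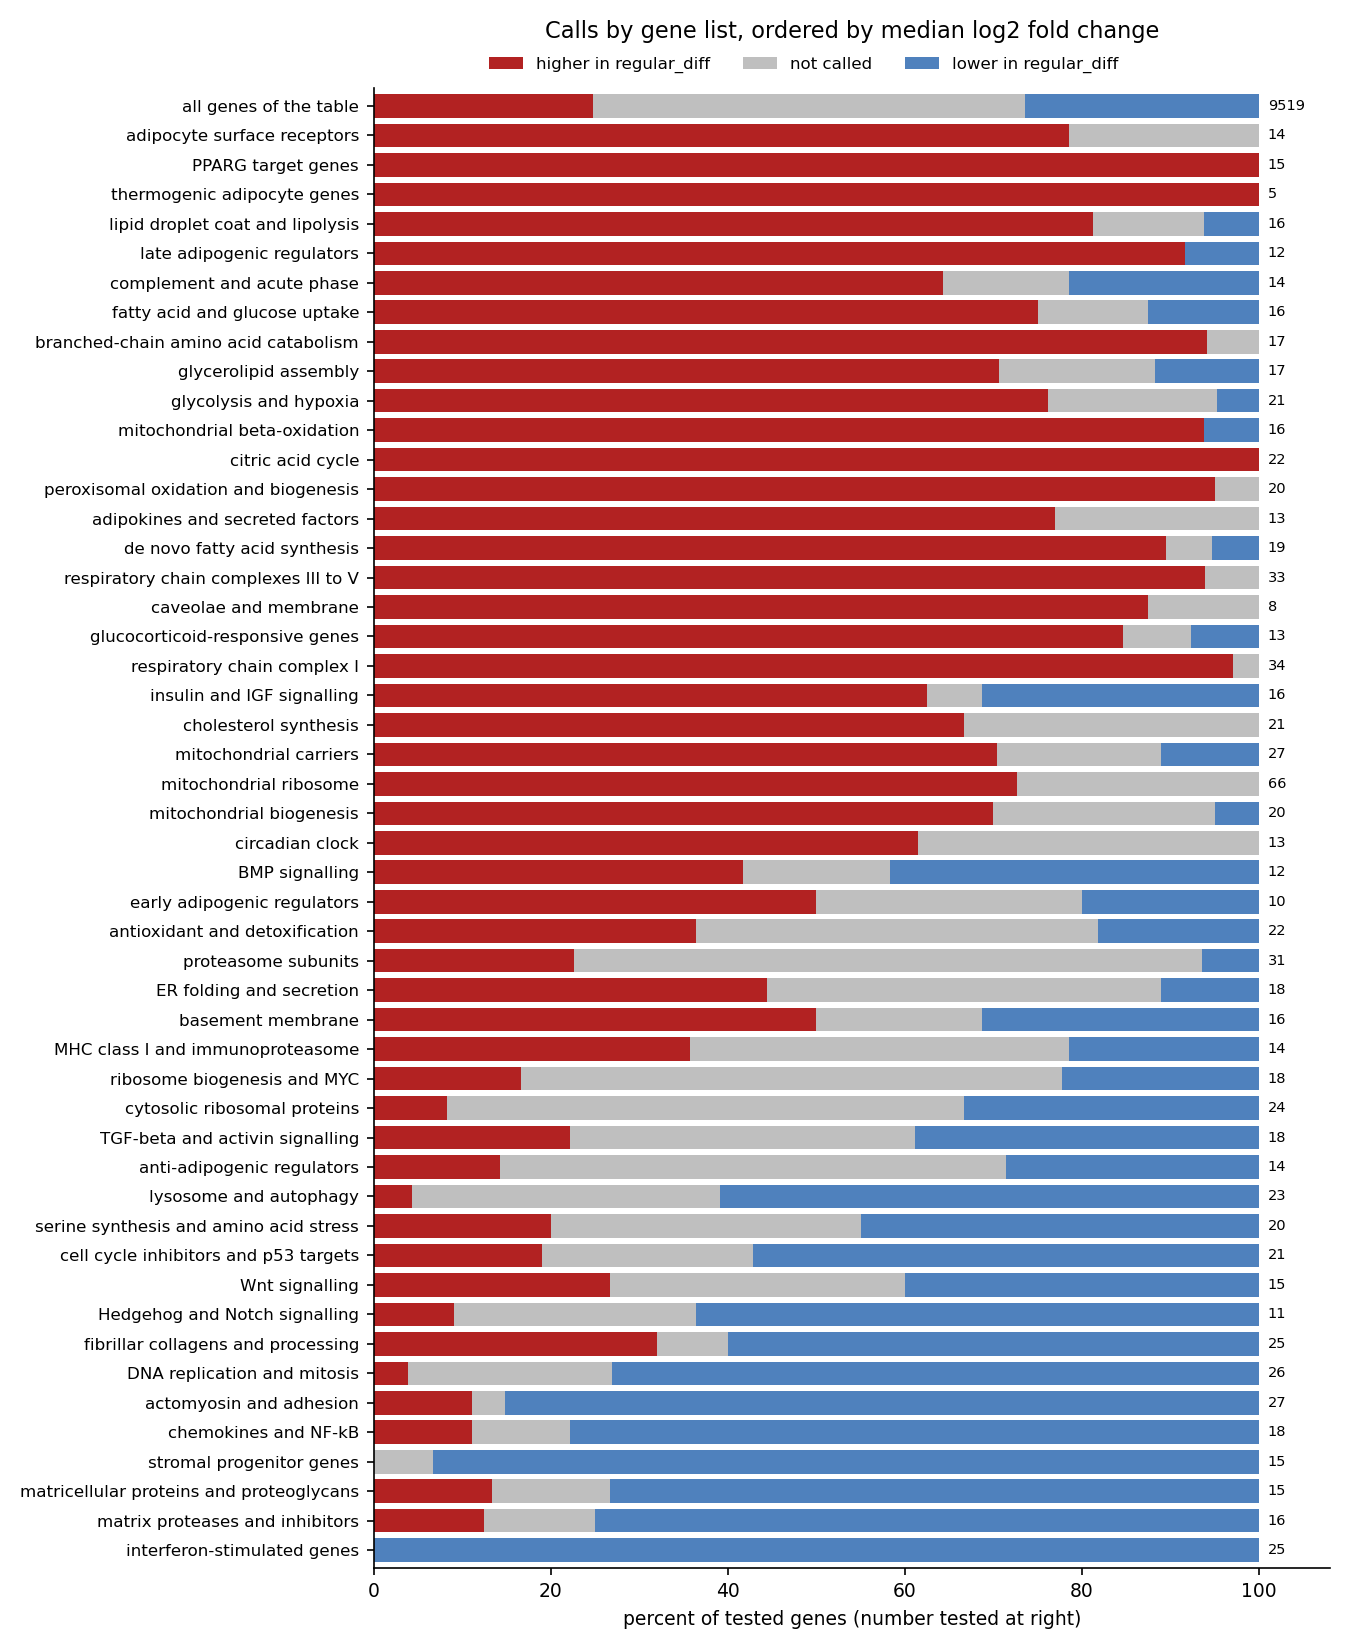
Percent of tested genes that were higher (red), not called (grey) and lower (blue) in regular_diff than in preadipocyte, for all genes and for each gene list with at least 5 tested members, ordered by median log2 fold change. All 22 citric acid cycle genes lie on the higher side and all 25 interferon-stimulated genes on the lower side, against 24.8% and 26.4% of all genes.

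A group of genes had a clear level in regular_diff and no molecule at all in the preadipocyte libraries. In 115 genes all 3 preadipocyte libraries held 0 counts, and 59 of these had 20 or more counts over the regular_diff libraries. Against a floor of 3 counts over the preadipocyte group, Aqp7, the glycerol channel of fat cells, was at least 69.0-fold higher in regular_diff, with 68, 50 and 71 counts. Aatk, a kinase named for apoptosis, was at least 135-fold higher, Hcar2, the niacin receptor, at least 132-fold higher, and Pck1, the enzyme of glyceroneogenesis, at least 103-fold higher. Cyp2ab1, a cytochrome P450, was at least 93.9-fold higher, and Klb, the coreceptor beta-klotho for the hormone FGF21, was at least 59.2-fold higher. Gdf5, a ligand of the BMP family, was at least 62.8-fold higher, Slc13a4, a sulphate transporter, at least 52.96-fold higher, Aldh3b2, an aldehyde dehydrogenase, at least 55.5-fold higher, and Fam107a at least 40.5-fold higher. The reverse was rarer: 33 genes held 0 counts in regular_diff, 7 of them with 20 or more counts over the preadipocyte libraries. These 7 were Lce1g, at least 10.95-fold lower in regular_diff, A830082K12Rik, at least 10.6-fold lower, Cmpk2, at least 9.43-fold lower, Oas2, at least 8.21-fold lower, Tro, at least 7.91-fold lower, C1qtnf3, at least 6.996-fold lower, and Elobl, at least 6.08-fold lower. Of these 7 only A830082K12Rik passed the filter on low counts and was tested, so no call was made for the others. Cmpk2 and Oas2 belong to the interferon-stimulated genes described further on. The largest fitted rises of genes with a mean of at least 20 CPM, beside those absent from preadipocyte, were of Thrsp, Car3, Apoa4, Cidec, Hcar1 and genes named elsewhere. Apoa4, an apolipoprotein, was 691-fold (95% counting interval 124 to 27354) higher in regular_diff with a single count in preadipocyte replicate 5, and Hcar1, the lactate receptor of fat cells, 496-fold (95% counting interval 88.6 to 19649) higher, likewise with a single count there. Thrsp, a lipogenic factor, had a mean of 838 CPM in regular_diff and 0.835 CPM in preadipocyte. It rose by 9.93 ± 0.25, and by 11.14 ± 0.28 without preadipocyte replicate 5. Preadipocyte replicates 4 and 6 stood at 0.0386% of the regular_diff mean and replicate 5 at 0.222%. Both fold changes thus rest on very few preadipocyte counts, and their size is uncertain. The largest falls included Ptprv, a phosphatase-like receptor, at -5.55 ± 0.39 (-4.78 with thinned counts), Mmp9, a gelatinase, at -5.53 ± 0.41 (-6.69 without regular_diff replicate 6), Ctxn1, a small membrane protein named for the cortex, at -4.20 ± 0.25, Ces1a, a carboxylesterase, at -3.73 ± 0.27, and Tnc, the matrix protein tenascin C, at -3.62 ± 0.31.

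The labels of both groups could be checked against marker genes. All 9 tested adipocyte markers rose, and Lep, for the hormone leptin, was not tested at 8, 1 and 4 counts in regular_diff against 0, 0 and 0 in preadipocyte. Of 8 tested markers of preadipocytes and fibroblasts 7 fell and 0 rose. Thy1, a surface antigen of fibroblasts, stood at 54.5, 57.7 and 52.1 CPM in regular_diff, against 277, 312 and 315 CPM in preadipocyte, and the groups did not overlap (log2 fold change -2.46 ± 0.12 SE, adjusted p = 1.09e-15 by edgeR's quasi-likelihood test). Pdgfra, the receptor that marks fibro-adipogenic precursors, was lower in every regular_diff library too, at 50.2, 69.0 and 68.8 CPM in regular_diff against 138, 115 and 153 CPM in preadipocyte. Of all genes tested, the 3 libraries of each group did not overlap in 2655 that were higher (27.9%) and 2879 that were lower (30.2%) in regular_diff, and that holds for every called gene listed here by library unless an overlap is named. Markers of other cell types were few: of 10 macrophage markers 4 were measured, with Cd68, a lysosomal glycoprotein, at 8.47, 13.5 and 7.52 CPM in regular_diff against 3.49, 3.72 and 3.23 CPM in preadipocyte and Lyz2 at 0.605, 0.749 and 0.578 CPM against 3.99, 8.05 and 5.81 CPM in the same order. The other 6, among them Ptprc, Adgre1 and Csf1r, and the 7 endothelial markers were not analysed here. Of 8 markers of mammary epithelium 5 were measured and 4 tested, of which 2 rose, 0 fell and 2 were not called. Without preadipocyte replicate 5, 1 of 4 rose and 0 fell. Krt18, a keratin of simple epithelia and 1 of the rises, stood at 22.99, 21.0 and 22.0 CPM in regular_diff and 1.99, 1.24 and 5.17 CPM in preadipocyte. Its log2 fold change was 2.98 ± 0.44, or 3.66 without preadipocyte replicate 6. The epithelial genes Epcam and Cdh1 were not analysed here. Des, the muscle filament desmin and the only muscle marker tested, rose by 1.72 ± 0.18, and the cartilage and bone factors Sox9 and Runx2, the only ones of their list tested, fell by 1.53 ± 0.38 and 1.57 ± 0.18. Without preadipocyte replicate 5 a further marker of each list was tested and called, so that 1 muscle marker was higher and 1 lower, and 1 of 3 bone and cartilage markers was higher. The part of these marker genes in the results was not tested.

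The regulators known to hold the fat cell state rose. Of 12 late adipogenic regulators tested, 11 rose and 1 fell (12 and 0 of 13 without preadipocyte replicate 5; median log2 fold change 3.26, or 3.20 with a gene absent from preadipocyte set at its bound), against a median of -0.06 over all genes. Pparg, the receptor that commands the fat cell programme, stood at 891, 833 and 902 CPM in regular_diff, against 43.4, 55.8 and 47.8 CPM in preadipocyte (4.16 ± 0.13 with preadipocyte replicate 5 and 4.25 ± 0.14 without it). Cebpa, for C/EBP-alpha, stood at 390.2, 408 and 389 CPM in regular_diff, against 13.5, 11.2 and 12.9 CPM in preadipocyte (4.97 ± 0.14, and 4.87 ± 0.16 without preadipocyte replicate 5). Srebf1, which encodes the sterol and insulin responsive factor SREBP1, stood at 320.0, 291 and 293 CPM in regular_diff, against 55.8, 48.9 and 55.6 CPM in preadipocyte. Nr1h3, which encodes the oxysterol receptor LXR-alpha, stood at 154, 121 and 153 CPM in regular_diff, against 11.5, 8.05 and 5.81 CPM in preadipocyte. Esrra, for the orphan receptor ERR-alpha that acts on mitochondrial genes, stood at 147, 141 and 149.8 CPM in regular_diff, against 46.9, 60.1 and 58.8 CPM in preadipocyte. For Srebf1, Nr1h3 and Esrra every regular_diff library lay above every preadipocyte library, with log2 fold changes of 2.49 ± 0.11, 4.03 ± 0.20 and 1.41 ± 0.13 (SE). Rxra, the partner of PPARG on DNA, rose less, by 0.73 ± 0.11, and Ncoa1, a coactivator, by 1.51 ± 0.18. Tle3, a corepressor that also supports PPARG in fat, was the one fall, at -0.43 ± 0.17, and its call was lost in 9 of 17 alternative fits. Rxrg, another partner, had 14, 8 and 15 counts in regular_diff and 0 in preadipocyte and was not tested.

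**Figure D3:**
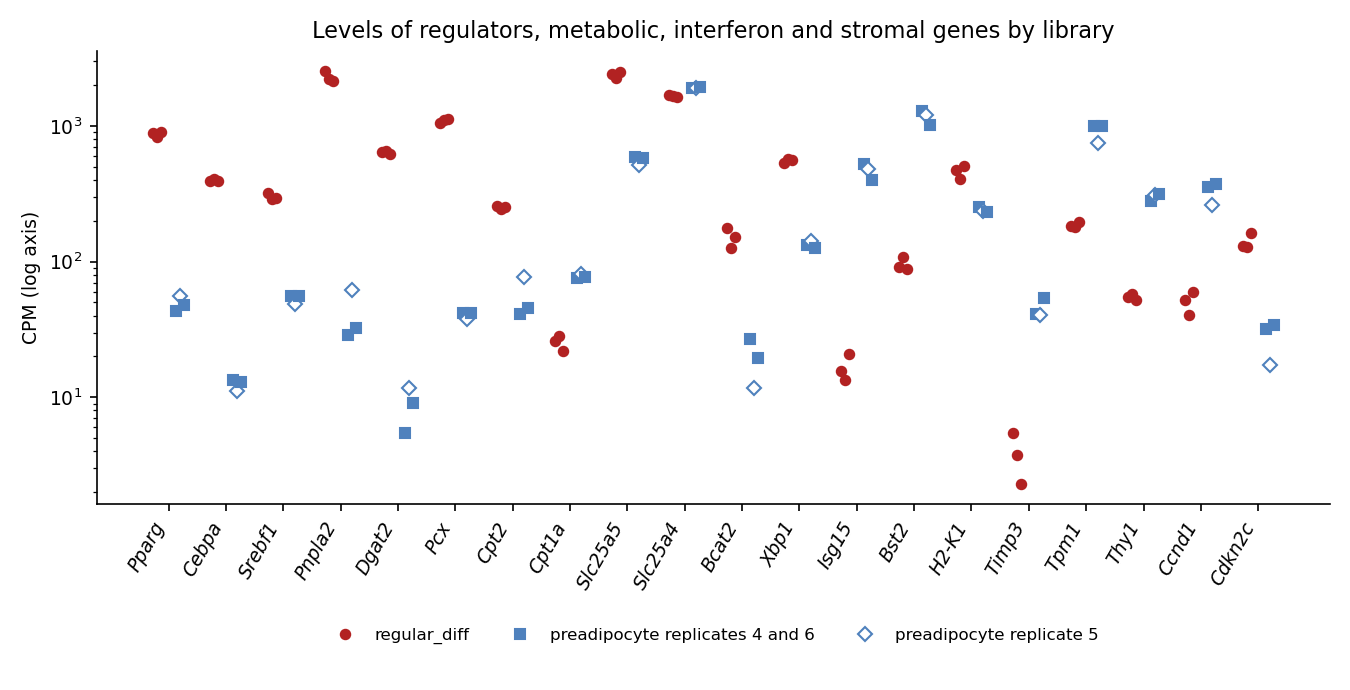
Level of 20 genes in each library (CPM, logarithmic axis), with the 3 regular_diff libraries as red circles left of the preadipocyte libraries, which are blue squares for replicates 4 and 6 and an open diamond for replicate 5. The groups do not overlap for any of the 20; they lie closest for Slc25a4, at 1654 CPM in regular_diff against 1920.1 CPM in preadipocyte, and preadipocyte replicate 5 lies above its group for Pnpla2, Cpt2 and Dgat2.

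Early regulators moved both ways. Among the 10 tested, 5 rose and 2 fell (6 and 1 of 11 without preadipocyte replicate 5). Stat5a, a signal transducer for growth hormone and prolactin, rose by 1.75 ± 0.18 on the log2 scale, with 64.7, 71.9 and 77.5 CPM in regular_diff against 17.4, 26.0 and 20.7 CPM in preadipocyte. Cebpb, for C/EBP-beta, stood at 531, 505 and 563 CPM in regular_diff and 388, 269 and 470.4 CPM in preadipocyte, a change of 0.50 ± 0.17 whose call was lost in 4 of 17 alternatives. Cebpd was not tested, at 3.03, 0.749 and 5.21 CPM in regular_diff and 3.49, 0.619 and 3.88 CPM in preadipocyte. Klf4, a factor of the first hours of adipogenesis in 3T3-L1 cells, fell by 1.70 ± 0.15 (SE), with 33.9, 47.2 and 34.1 CPM in regular_diff against 138, 107 and 125 CPM in preadipocyte. Of 14 anti-adipogenic regulators tested 2 rose and 4 fell (2 and 5 of 14 without preadipocyte replicate 5), against 24.8% and 26.4% of all genes. Foxo1, a target of insulin signalling that restrains PPARG, rose by 2.04 ± 0.24, and Hes1, an effector of Notch, by 1.02 ± 0.13. Foxc2 fell by 1.80 ± 0.30 and Id2, an inhibitor of basic helix-loop-helix factors, by 1.10 ± 0.29, while Ddit3, the C/EBP homologue CHOP, was not called at -0.18 ± 0.12. Gata2, which holds cells at the preadipocyte stage, fell by 3.07 ± 0.38, and Nr2f2, the orphan receptor COUP-TFII, changed by -0.95 ± 0.37, call lost in 7 of 17. Egr2, another early factor, changed by -1.25 ± 0.43, call lost in 4 of 17. Among 12 Kruppel-like factors measured, Klf15 rose by 7.68 ± 0.27 (8.37 ± 0.32 without preadipocyte replicate 5) and Klf9 by 1.44 ± 0.16; besides Klf4, falls were called for Klf6 (-0.40 ± 0.16, call lost in 8 of 17) and Klf16 (-0.55 ± 0.22, call lost in 9 of 17), and Klf2, Klf3, Klf5, Klf7, Klf10, Klf11 and Klf13 were not called.

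Interferon-stimulated genes fell as one body. All 25 tested members were lower in regular_diff (26.4% of all genes), with a median log2 fold change of -3.27, and 26 of 27 fell without preadipocyte replicate 5. The list took 0.0441, 0.0471 and 0.0485% of all counts in the regular_diff libraries, against 0.491, 0.364 and 0.403% in the preadipocyte libraries. These genes are switched on through a factor that holds STAT2 and IRF9 and binds a DNA element called the interferon-stimulated response element near their start sites. The element's core was taken here as GAAA, any 2 bases and GAAA again on either strand, and it was present in the window from 250 bases before to 50 bases after the start in 12 of the 25 promoters that RefSeq lists for 20 members (48.0%), against 3.44% of 32851 mouse promoters. Of 7 promoters with 2 or more matches, the 5 whose matches all lie within the 160 bases before the start are printed over those bases in GRCm38.p6 from RefSeq, 5′ to 3′ on the gene's strand, with the matches in capitals. They lie at chr4:156200819-156200978 (minus strand, Isg15), chr8:71537473-71537632 (minus, Bst2), chr19:34640729-34640888 (plus, Ifit1), chr19:34583369-34583528 (plus, Ifit3) and chr3:142559884-142560043 (plus, Gbp3).
Isg15: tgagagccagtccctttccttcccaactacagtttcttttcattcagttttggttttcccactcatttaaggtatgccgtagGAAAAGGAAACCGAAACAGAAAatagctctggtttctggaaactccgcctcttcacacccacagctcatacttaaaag
Bst2: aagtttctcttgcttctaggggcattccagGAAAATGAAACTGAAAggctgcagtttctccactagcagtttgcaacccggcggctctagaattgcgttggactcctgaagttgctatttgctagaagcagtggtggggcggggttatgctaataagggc
Ifit1: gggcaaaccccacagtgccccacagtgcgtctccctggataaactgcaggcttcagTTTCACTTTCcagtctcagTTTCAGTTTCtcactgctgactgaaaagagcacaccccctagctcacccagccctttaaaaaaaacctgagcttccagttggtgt
Ifit3: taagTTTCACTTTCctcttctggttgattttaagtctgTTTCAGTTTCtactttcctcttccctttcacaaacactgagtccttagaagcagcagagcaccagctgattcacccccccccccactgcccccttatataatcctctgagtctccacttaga
Gbp3: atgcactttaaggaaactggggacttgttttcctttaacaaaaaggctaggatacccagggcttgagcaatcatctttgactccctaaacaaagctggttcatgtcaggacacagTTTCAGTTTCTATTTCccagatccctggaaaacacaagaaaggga

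Matches in these windows ran into each other in Isg15, Bst2 and Gbp3 and stood apart in Ifit1 and Ifit3. The 10 tested members with a match had a median log2 fold change of -3.37, the 7 with a promoter in the table and no match -2.26, and the 8 without a promoter in the table -3.33. Isg15, which encodes a ubiquitin-like modifier (chr4:156199424-156200818, minus strand in mm10), stood at 15.7, 13.5 and 20.8 CPM in regular_diff, against 528, 484 and 397 CPM in preadipocyte (log2 fold change -4.79 ± 0.17 SE, adjusted p = 2.02e-18 by edgeR's quasi-likelihood test). Bst2, for the virus-tethering membrane protein tetherin (chr8:71534255-71537456, minus strand), stood at 92.0, 109 and 87.9 CPM in regular_diff, against 1297, 1199.9 and 1022 CPM in preadipocyte (-3.61 ± 0.14). For both genes the spread within each group was small beside the gap between the groups. Gbp3, a guanylate-binding GTPase, stood at 7.26, 9.74 and 6.36 CPM in regular_diff against 46.4, 40.9 and 42.0 CPM in preadipocyte (-2.48 ± 0.26), and Ifit1, which binds viral RNA, at 1.21, 3.75 and 0.578 CPM against 118, 115 and 68.5 CPM in the same order. Ifit3, whose product binds other members of its family, stood at 3.03, 2.25 and 4.63 CPM in regular_diff against 117, 39.6 and 91.7 CPM in preadipocyte, and Ifitm3, a membrane protein that blocks virus entry, at 105, 92.2 and 104 CPM against 1238, 579 and 1156 CPM in the same order. Preadipocyte replicate 5 was the lowest of its group for both and still above every regular_diff library. Genes of the factor itself were lower too: Irf9 fell by 2.81 ± 0.18 and Stat2 by 2.34 ± 0.17. Irf7, a factor that feeds back on interferon itself, fell by 2.03 ± 0.23, and Rtp4, a transport protein induced by interferon, fell by 3.38 ± 0.26.

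Genes of antigen presentation did not share a direction. Of 14 tested genes of MHC class I and the immunoproteasome 5 rose and 3 fell, against 24.8% and 26.4% of all genes (4 and 3 of 14 without preadipocyte replicate 5, and 3 and 3 of 14 when scaled by the library total alone). H2-K1, a classical class I heavy chain, stood at 471, 405 and 504 CPM in regular_diff, against 253, 237 and 231 CPM in preadipocyte (0.94 ± 0.10). Psme2, a proteasome activator, rose by 1.02 ± 0.15 and H2-T23 by 0.93 ± 0.20, while Tap1, the peptide transporter, fell by 0.94 ± 0.19. Tapbp, tapasin, fell by 0.31 ± 0.10, and the immunoproteasome subunit Psmb8 was not called (-0.32 ± 0.31). B2m, the light chain that all class I molecules share, stood at 425, 172 and 482 CPM in regular_diff and 745, 81.8 and 1501 CPM in preadipocyte and was not called with preadipocyte replicate 5 (-1.10 ± 1.05) or without it (-1.65 ± 0.89). H2-K1 and H2-D1 are near-identical in parts, so the authors' counting may have split reads between them, and H2-D1 at -0.31 ± 0.10 lost its call in 2 of 17 alternatives. Cd74, the invariant chain of class II, was among the 10 largest falls, with 7.87, 3.75 and 3.47 CPM in regular_diff against 122, 97.3 and 131 CPM in preadipocyte (-4.5 ± 0.24).

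Chemokines and the NF-kB factors fell with few exceptions. Of 18 tested, 14 fell and 2 rose (15 and 2 of 18 without preadipocyte replicate 5; median -1.38). Csf1, the growth factor of macrophages, stood at 61.1, 72.7 and 61.3 CPM in regular_diff, against 337, 281 and 328 CPM in preadipocyte (-2.28 ± 0.12). Cxcl12, which attracts lymphocytes and blood stem cells, stood at 707, 815 and 675 CPM in regular_diff, against 1434, 1600.1 and 1458 CPM in preadipocyte (-1.03 ± 0.10). Vcam1, an adhesion molecule for leukocytes, fell by 1.74 ± 0.37, Cx3cl1, a membrane-bound chemokine, by 1.48 ± 0.21, and Nfkb1, the p105 and p50 subunit, by 1.27 ± 0.15. Ccl2, a monocyte chemokine, fell by 2.96 ± 0.19, and Cxcl1 changed by -0.98 ± 0.25, call lost in 1 of 17. The 2 rises were of feedback inhibitors of the pathway, Tnfaip3, which encodes A20, at 1.47 ± 0.42 and Nfkbia, which encodes I-kappa-B-alpha, at 0.77 ± 0.16. Ccl7, a monocyte chemokine, stood at 14.5, 7.49 and 10.4 CPM in regular_diff against 51.4, 6.81 and 53.6 CPM in preadipocyte, and was not called with preadipocyte replicate 5 (-1.77 ± 0.89) unless the fit was not robust, but was called without it (-2.26 ± 0.68).

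Complement and acute-phase genes split. Of 14 tested 9 rose and 3 fell. C3, the central complement protein, stood at 2336, 2104 and 2139 CPM in regular_diff, against 144, 159 and 103 CPM in preadipocyte (4.02 ± 0.13), and Lcn2, which encodes the iron-siderophore binder lipocalin 2, rose by 3.20 ± 0.29. C4b rose by 4.95 ± 0.35 with preadipocyte replicate 5 and 6.27 ± 0.43 without it, and Cfb, of the alternative pathway, by 3.06 ± 0.46. The proteases that start the classical pathway went the other way: C1s1 fell by 1.26 ± 0.12 and C1ra by 1.08 ± 0.15. Ptx3, a secreted pentraxin, fell by 1.69 ± 0.12.

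In signals that act on adipogenesis, members of one pathway differed in direction. Of 15 Wnt pathway genes tested 4 rose and 6 fell (4 and 7 of 16 without preadipocyte replicate 5), against 24.8% and 26.4% of all genes. Wnt signals restrain adipogenesis through beta-catenin. Ctnnb1, which encodes beta-catenin, stood at 249, 301 and 241 CPM in regular_diff, against 471, 567 and 474 CPM in preadipocyte (-0.94 ± 0.11), and the receptor gene Fzd2 at 26.6, 27.7 and 23.7 CPM against 127.6, 92.9 and 103 CPM in the same order (-2.06 ± 0.18). The factors that beta-catenin works with rose, Tcf7l2 by 1.10 ± 0.24 and Lef1 by 2.17 ± 0.49. Fzd4 and Lrp5, a receptor and a coreceptor, rose too, by 1.43 ± 0.45 and 0.55 ± 0.12. In the Hedgehog and Notch list 7 of 11 fell and 1 rose (8 and 0 of 12 without preadipocyte replicate 5). The rise, of Ptch1, lost its call in 3 of 17 alternatives, among them the fit without that library. Gas1, a surface protein that binds Hedgehog ligands, stood at 289.8, 325 and 308 CPM in regular_diff, against 1537, 1093 and 1384 CPM in preadipocyte (-2.12 ± 0.12). Gli3, a transcription factor of the pathway, fell by 2.27 ± 0.45, Smo, its signalling receptor, by 0.79 ± 0.13, and Notch1 by 0.77 ± 0.21.

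In the TGF-beta and activin list 4 of 18 rose and 7 fell, against 24.8% and 26.4% of all genes. The ligand Tgfb3 went down, with 16.3, 12.7 and 7.52 CPM in regular_diff against 52.3, 64.4 and 49.1 CPM in preadipocyte (-2.18 ± 0.24), and so did the receptor Tgfbr2 (-1.19 ± 0.16) and the signal transducer Smad3 (-1.11 ± 0.19). Inhbb, the activin B subunit, rose by 1.32 ± 0.29, while Tgfb1 changed by 0.75 ± 0.21, call lost in 1 of 17 and Tgfbi by 0.38 ± 0.15, call lost in 7 of 17. BMP genes were even, 5 higher and 5 lower of 12 (5 and 4 of 13 without preadipocyte replicate 5). Id1, a direct BMP target, stood at 345, 326 and 375 CPM in regular_diff, against 162, 147 and 165 CPM in preadipocyte (1.14 ± 0.10). Among secreted antagonists, Chrdl1 rose by 3.75 ± 0.27, while Fstl1 fell by 1.81 ± 0.12 and Fst, follistatin, by 1.74 ± 0.18. Grem1, gremlin, had 0, 1.499 and 1.16 CPM in regular_diff against 46.4, 18.0 and 40.1 CPM in preadipocyte (-5.24 ± 0.90, and -4.01 with thinned counts). Bmp1, a protease that cuts procollagen and BMP antagonists, fell by 2.06 ± 0.14, and Smad1 changed by -0.60 ± 0.25, call lost in 13 of 17.

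Genes of insulin and glucocorticoid signals rose more often than they fell. Both agents were part of the cocktail, dexamethasone for the first 2 days only, and their part in the rises was not tested. Of 16 insulin and IGF genes tested 10 rose and 5 fell (median 1.02). The ligand Igf2 stood at 58.1, 80.9 and 57.8 CPM in regular_diff, against 3.99, 6.81 and 1.94 CPM in preadipocyte (3.91 ± 0.28), and Igf1 rose by 2.30 ± 0.37. The receptors fell, with Igf1r at 5.45, 3.75 and 6.94 CPM in regular_diff against 25.9, 18.6 and 23.3 CPM in preadipocyte (-2.03 ± 0.33) and Igf2r, which takes IGF2 to lysosomes, at -1.68 ± 0.11. Insr, the insulin receptor, was not tested, at 2.42, 5.25 and 4.05 CPM in regular_diff and 2.49, 0 and 1.29 CPM in preadipocyte. Downstream, Irs2 rose by 1.91 ± 0.13, Pik3r1 by 1.31 ± 0.27 and Pde3b, the phosphodiesterase by which insulin blocks lipolysis, by 2.36 ± 0.23, whereas Akt1 fell by 0.94 ± 0.10. Igfbp6, a binding protein that favours IGF2, fell by 2.58 ± 0.28 and Grb14, an adaptor that dampens the insulin receptor, by 0.94 ± 0.20, and Irs1 changed by 0.92 ± 0.28, call lost in 1 of 17. Of 13 glucocorticoid-responsive genes 11 rose and 1 fell. Fkbp5, a chaperone of the glucocorticoid receptor, stood at 122, 126 and 130.1 CPM in regular_diff, against 51.9, 74.3 and 49.1 CPM in preadipocyte (1.11 ± 0.15). Zbtb16 rose by 4.27 ± 0.34, Glul, for glutamine synthetase, by 5.63 ± 0.33 and Tsc22d3, for GILZ, by 0.80 ± 0.15. The clock gene Per1 rose by 0.60 ± 0.18 and the metallothionein gene Mt1 changed by 0.71 ± 0.24, call lost in 5 of 17. Sgk1, a kinase of the same class of targets, was lower at 80.5, 88.4 and 76.4 CPM in regular_diff against 178, 239.7 and 208 CPM in preadipocyte (-1.35 ± 0.13).

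The machinery that stores and releases fat rose almost whole. All 15 tested PPARG target genes rose (24.8% of all genes), with a median log2 fold change of 6.56 or 6.54 with 2 genes absent from preadipocyte set at their bounds. They took 3.30, 3.04 and 3.16% of all counts in the regular_diff libraries, against 0.0515, 0.1001 and 0.0551% in the preadipocyte libraries, of which preadipocyte replicate 5 was the highest. Fabp4, the fatty acid binding protein of fat cells, stood at 15310.3, 13797 and 13534 CPM in regular_diff, against 42.9, 349 and 60.7 CPM in preadipocyte (6.56 ± 0.81, and 8.09 ± 0.27 without preadipocyte replicate 5). Plin1, which coats the droplet of fat cells, stood at 294, 269 and 280.0 CPM in regular_diff, against 0.997, 1.24 and 0 CPM in preadipocyte (8.36 ± 0.23, and 8.75 ± 0.28 without that library). For Fabp4 preadipocyte replicate 5 was clearly the highest of its group, and for Plin1 it stood close to preadipocyte replicate 4. The Plin1 levels in preadipocyte rest on very few counts, so the size of its change is uncertain. For both genes every preadipocyte library lay far below every regular_diff library. Of 16 genes of the lipid droplet and lipolysis 13 rose and 1 fell (14 and 2 of 16 without preadipocyte replicate 5). Pnpla2, which encodes ATGL, the first lipase of triglyceride breakdown (chr7:141455198-141460743, plus strand in mm10), stood at 2521, 2206 and 2123 CPM in regular_diff, against 28.9, 61.3 and 32.3 CPM in preadipocyte. Its log2 fold change was 5.81 ± 0.24 with preadipocyte replicate 5 and 6.20 ± 0.15 without it (adjusted p = 5.23e-10 by edgeR's quasi-likelihood test). Its inhibitor G0s2 rose too, with 1684, 1806 and 1614 CPM in regular_diff against 4.99, 20.4 and 4.52 CPM in preadipocyte (7.43 ± 0.38, and 8.43 ± 0.17 without preadipocyte replicate 5). Lipe, hormone-sensitive lipase, rose by 6.13 ± 0.25, and Abhd5, the coactivator of ATGL, by 1.39 ± 0.17. Perilipins moved by unequal amounts: Plin4 rose by 3.98 ± 0.15 and Plin2, which coats droplets in many cell types, by 1.32 ± 0.11, while Plin3 was not called (-0.19 ± 0.20) with preadipocyte replicate 5 and fell by 0.45 ± 0.12 without it. The one fall in the list was Faf2, an endoplasmic reticulum protein that takes part in protein degradation (-0.71 ± 0.16). Fitm2, which helps droplets bud from the endoplasmic reticulum, rose by 3.02 ± 0.26.

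Genes of triglyceride assembly mostly rose. Of 17 genes tested 12 rose and 2 fell (median 1.82). Dgat2, for the last acylation, stood at 641, 658 and 622 CPM in regular_diff, against 5.48, 11.8 and 9.05 CPM in preadipocyte (6.21 ± 0.18), and Dgat1 at 857, 905 and 885 CPM against 50.4, 65.7 and 49.7 CPM in the same order (4.0 ± 0.12). Agpat2, the acyltransferase lost in a human lipodystrophy, rose by 4.04 ± 0.20, Lpin1, a phosphatidate phosphatase, by 3.75 ± 0.16 and Gpam, the first acyltransferase of the path in mitochondria, by 1.82 ± 0.18. Gpd1, which makes glycerol 3-phosphate, rose by 8.15 ± 0.61 with preadipocyte replicate 5 and 9.85 ± 0.17 without it. Acyl-CoA synthetases did not move together: Acsl1 rose by 6.54 ± 0.42 (7.42 ± 0.16 without preadipocyte replicate 5) and Acsl3 by 1.08 ± 0.20, Acsl5 fell by 0.69 ± 0.17, and Acsl4 was not called (0.04 ± 0.28). The other fall was of Lpin2, a relative of Lpin1 (-0.71 ± 0.22, call lost in 1 of 17).

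Genes of fatty acid synthesis rose almost throughout. Of 19 tested 17 rose and 1 fell (16 and 1 of 19 without preadipocyte replicate 5; median 1.41). Slc25a1, which carries citrate out of mitochondria, stood at 1166, 876 and 1188 CPM in regular_diff, against 189, 243 and 239 CPM in preadipocyte (2.27 ± 0.13). Acly, which splits that citrate, rose by 1.54 ± 0.12, Acaca and Acacb, the acetyl-CoA carboxylases, by 1.65 ± 0.15 and 1.41 ± 0.27, and Fasn, the synthase, by 3.52 ± 0.37. NADPH for the path comes from Me1 (2.22 ± 0.13), G6pdx (1.28 ± 0.11) and Pgd (1.03 ± 0.11), and all 3 rose. The desaturase Scd1 stood at 4556, 3833 and 4701 CPM in regular_diff, against 40.9, 86.1 and 49.1 CPM in preadipocyte (6.22 ± 0.35), and its relative Scd2 rose by 1.72 ± 0.11. Acss2, which activates acetate, rose by 2.49 ± 0.20. The one fall was of Elovl6, the elongase that acts after the synthase, at 5.45, 3.75 and 2.31 CPM in regular_diff against 21.4, 12.4 and 7.75 CPM in preadipocyte (-1.88 ± 0.45); of its relatives Elovl5 changed by 0.61 ± 0.18, call lost in 1 of 17 and Elovl1 was not called (0.12 ± 0.12). On the uptake side 12 of 16 rose and 2 fell (11 and 2 of 16 without preadipocyte replicate 5). Fabp5, a fatty acid binding protein, rose by 3.80 ± 0.34 and the fatty acid transporter Slc27a1 by 1.46 ± 0.18. Slc27a3, another member of the transporter family, fell by 1.02 ± 0.30. Hexokinases split, Hk2, the insulin-responsive form, rising by 2.21 ± 0.23 and Hk1 falling by 0.93 ± 0.13; Slc2a1, the basal glucose transporter, changed by 0.31 ± 0.13, a call lost in 12 of 17 alternatives.

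Genes of glycolysis and the hypoxia response rose in 16 of 21 cases, against 1 fall (18 and 1 of 22 without preadipocyte replicate 5). Aldoa, aldolase A, stood at 3810.3, 4259 and 3850.0 CPM in regular_diff, against 625, 869 and 654 CPM in preadipocyte (2.47 ± 0.12), and Pfkl, the liver-type phosphofructokinase, at 442, 398 and 442 CPM against 101, 113 and 110.5 CPM in the same order (1.98 ± 0.11). Ldha rose by 1.68 ± 0.11 and Ldhb by 1.17 ± 0.13, while Pkm, pyruvate kinase, was not called (0.15 ± 0.12) and Pfkm was not either (0.22 ± 0.14). Bnip3, a mitophagy receptor induced in hypoxia, stood at 1172, 1134 and 1159.7 CPM in regular_diff, against 42.4, 67.5 and 59.4 CPM in preadipocyte (4.36 ± 0.14). Egln3, an oxygen-sensing prolyl hydroxylase, rose by 5.16 ± 0.21 and Vegfa by 2.05 ± 0.10. Gapdh was counted at 79.9, 2788 and 2816 CPM in regular_diff and 50.9, 36.5 and 51.7 CPM in preadipocyte, so that regular_diff replicate 4 stood near the preadipocyte libraries, and its call was lost in 4 of 17 alternatives. Gapdh shared 66.2% of its 3′ stretches with other transcripts.

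Cholesterol synthesis genes rose in part, 14 of 21 tested against 0 falls (13 and 1 without preadipocyte replicate 5). Insig1, which holds back the sterol sensor, stood at 70.8, 64.5 and 83.9 CPM in regular_diff, against 8.97, 11.2 and 9.69 CPM in preadipocyte (2.88 ± 0.23). Hmgcs1, of the first steps of the path, rose by 1.12 ± 0.11 and Sqle, squalene epoxidase, by 1.01 ± 0.13. Srebf2, the sterol-responsive factor that governs the path, was not called (-0.14 ± 0.22).

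Mitochondrial genes rose together in the citric acid cycle, the respiratory chain and fat oxidation. All 22 tested citric acid cycle genes rose, with a median log2 fold change of 1.6, and they took 1.30, 1.33 and 1.32% of all counts in the regular_diff libraries, against 0.428, 0.430 and 0.426% in the preadipocyte libraries. Pcx, pyruvate carboxylase, which refills the cycle and feeds both fat synthesis and glycerol formation (chr19:4510472-4621752, plus strand in mm10), stood at 1047, 1114 and 1117 CPM in regular_diff, against 41.9, 37.8 and 42.0 CPM in preadipocyte (4.75 ± 0.15, adjusted p = 2.67e-20 by edgeR's quasi-likelihood test). Every regular_diff library was far above every preadipocyte library, and preadipocyte replicate 5 was the lowest of its group here. Cs, citrate synthase, rose by 1.88 ± 0.11, Mdh2, malate dehydrogenase, by 1.55 ± 0.10 and Pdha1, of pyruvate dehydrogenase, by 0.94 ± 0.12. Suclg1, of succinyl-CoA synthetase, rose by 1.5 ± 0.10 and Sdhb, of complex II, by 1.24 ± 0.10. Of 34 complex I genes 33 rose (median 1.07), and of 33 genes of complexes III to V 31 rose (median 1.38), with 0 falls in either. In complex I, Ndufs1 rose by 1.62 ± 0.26, Ndufv1 by 1.61 ± 0.11 and Ndufa9 by 1.46 ± 0.14. Uqcrfs1, the Rieske protein of complex III, stood at 976, 988 and 967 CPM in regular_diff, against 197, 227 and 196 CPM in preadipocyte (2.24 ± 0.10). Cox4i1, of complex IV, rose by 1.63 ± 0.12, and Atp5b, the catalytic subunit of ATP synthase, by 1.67 ± 0.11. Cyc1, cytochrome c1, rose by 2.0 ± 0.12, Uqcrc1 by 1.42 ± 0.12, Cox8a by 2.0 ± 0.39, Atp5g1 by 1.4 ± 0.13 and Atp5a1 by 0.91 ± 0.10. Genes of complexes III to V took 3.21, 3.16 and 3.11% of all counts in the regular_diff libraries, against 1.25, 1.35 and 1.29% in the preadipocyte libraries.

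**Figure D4:**
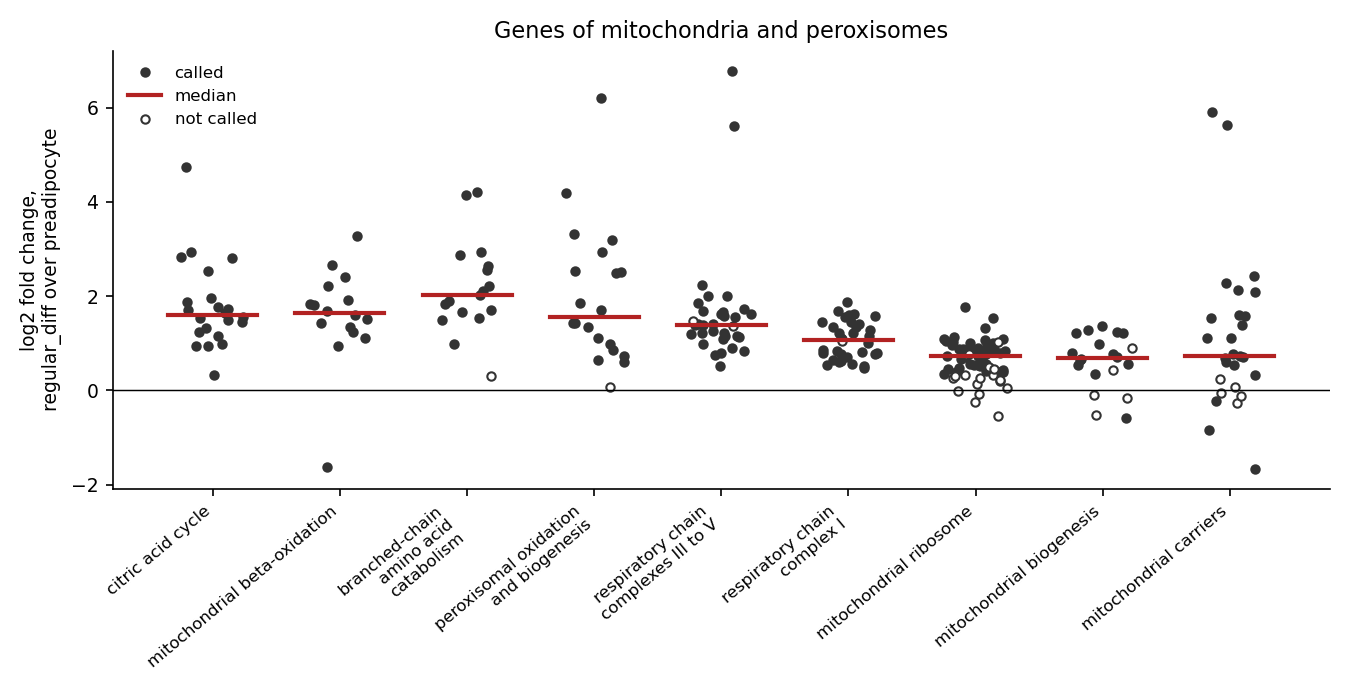
Log2 fold change of regular_diff over preadipocyte (y axis) of each tested gene in 9 lists of mitochondrial and peroxisomal genes; filled points were called, open points were not, and red bars are list medians. The medians run from 2.02 for branched-chain amino acid catabolism to 0.69 for mitochondrial biogenesis, and the lowest called gene of the oxidation list is Cpt1a at -1.62.

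Genes of fatty acid oxidation rose with 1 exception, at the entry to the mitochondrion. Of 16 genes tested 15 rose, and the 1 fall was Cpt1a, the liver form of the carnitine palmitoyltransferase that admits fatty acids to mitochondria. It stood at 26.0, 28.5 and 22.0 CPM in regular_diff, against 75.3, 80.5 and 77.5 CPM in preadipocyte (-1.62 ± 0.16, adjusted p = 1.05e-09 by edgeR's quasi-likelihood test). Cpt2, its partner on the inner membrane, stood at 257, 244 and 255 CPM in regular_diff, against 40.9, 76.8 and 45.2 CPM in preadipocyte (2.22 ± 0.17). Preadipocyte replicate 5 was the highest of its group for Cpt2 and differed little from its group for Cpt1a. Cpt1c, the brain form, also fell (-2.07 ± 0.24), and Cpt1b, the muscle form, was not analysed here. Acadvl, for very long chains, rose by 2.40 ± 0.10, Acads, for short chains, by 1.84 ± 0.11 and Hadha, of the trifunctional protein, by 1.25 ± 0.13. Decr1, for unsaturated chains, rose by 1.44 ± 0.31 and Acaa2, the last thiolase, by 1.35 ± 0.13.

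Genes that build mitochondria rose by less in the median than those of the enzymes above. Of 66 mitochondrial ribosomal proteins 48 rose and 0 fell (49 and 0 of 66 without preadipocyte replicate 5, and 42 and 1 of 66 when scaled by the library total alone), with a median of 0.73; Mrpl12 rose most, at 1.78 ± 0.12. Mrpl34 rose by 1.0 ± 0.10 and Mrps6 by 0.52 ± 0.11. Of 20 genes of mitochondrial biogenesis and import 14 rose and 1 fell (11 and 0 without preadipocyte replicate 5). Hspd1, the matrix chaperonin, rose by 1.37 ± 0.12 and Mfn2, of outer membrane fusion, by 0.79 ± 0.12. The fall was of Nrf1, a factor for nuclear genes of mitochondria (-0.59 ± 0.20, call lost in 5 of 17). Tfam, which packages and transcribes mitochondrial DNA, was not called, with 10.3, 8.99 and 11.6 CPM in regular_diff and 7.48, 13.0 and 13.6 CPM in preadipocyte (-0.10 ± 0.31). Of 27 carriers of the inner membrane 19 rose and 3 fell. The adenine nucleotide carriers, which trade ADP for ATP, parted: Slc25a5 stood at 2405, 2269 and 2474 CPM in regular_diff, against 587, 514 and 578 CPM in preadipocyte (2.09 ± 0.11), and Slc25a4 at 1692, 1650.3 and 1620.2 CPM against 1916, 1911 and 1933 CPM in the same order. The Slc25a4 change of -0.21 ± 0.09 lost its call in 11 of 17 alternatives. Slc25a10, the dicarboxylate carrier, had 54, 44 and 33 counts in regular_diff and 1, 1 and 0 in preadipocyte, a ratio of 71.8-fold (95% counting interval 19.5 to 599). Slc25a24, which brings ATP-magnesium into the matrix, fell by 1.66 ± 0.15. Slc25a12, an aspartate and glutamate carrier, fell by 0.85 ± 0.15, while Slc25a33, which carries pyrimidine nucleotides, and Slc25a42, which carries coenzyme A, rose by 1.59 ± 0.20 and 1.39 ± 0.17.

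Branched-chain amino acids are a fuel of fat cells, and their catabolic genes rose in 16 of 17 cases with 0 falls (median 2.02). Bcat2, the mitochondrial aminotransferase of the first step, stood at 177, 125 and 152 CPM in regular_diff, against 26.9, 11.8 and 19.4 CPM in preadipocyte (2.94 ± 0.19). Aldh6a1, of valine breakdown, stood at 472, 447 and 489 CPM in regular_diff, against 23.4, 26.6 and 29.7 CPM in preadipocyte (4.15 ± 0.13), and Dbt, a core of the ketoacid dehydrogenase, rose by 4.20 ± 0.23. Bckdha, the first subunit of that complex, rose by 1.89 ± 0.16 and Hibadh, of valine breakdown, by 2.21 ± 0.11. Oxct1, which activates ketone bodies, was the gene not called (0.30 ± 0.17). Bcat1, the cytosolic aminotransferase, was not tested, at 0.605, 0.749 and 0.578 CPM in regular_diff and 4.99, 3.10 and 0.646 CPM in preadipocyte.

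Peroxisomal genes rose in 19 of 20 cases, also with 0 falls (20 and 0 of 21 without preadipocyte replicate 5; median 1.57). Cat, catalase, stood at 279, 269.8 and 283 CPM in regular_diff, against 48.4, 50.8 and 43.9 CPM in preadipocyte (2.54 ± 0.13). Pex11a, which drives peroxisome division, stood at 129, 115 and 112 CPM in regular_diff, against 10.5, 11.2 and 14.2 CPM in preadipocyte (3.32 ± 0.16). Crat, carnitine acetyltransferase, rose by 2.94 ± 0.42, and Acaa1b, a peroxisomal thiolase with 0 counts in preadipocyte, was at least 10.6-fold higher. Other defences against oxidants were mixed, with 8 of 22 antioxidant and detoxification genes higher and 4 lower (10 and 5 of 22 without preadipocyte replicate 5). Over all genes 24.8% were higher and 26.4% lower. Sod1 rose by 1.75 ± 0.10 and Mgst1, a membrane glutathione transferase, by 2.72 ± 0.66, while Gpx1 fell by 0.82 ± 0.10 and Txnrd1, thioredoxin reductase, by 1.20 ± 0.15. Ephx1, an epoxide hydrolase, fell by 1.05 ± 0.11 and Sod3, the secreted dismutase, by 0.43 ± 0.10; Prdx3, the mitochondrial peroxiredoxin, changed by 1.67 ± 0.44, call lost in 1 of 17. The NRF2 targets Nqo1 (-0.20 ± 0.56) and Hmox1 (-0.34 ± 0.39) were not called.

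Genes of serine synthesis and the amino acid stress response, which ATF4 controls, fell more often than they rose: 9 of 20 fell and 4 rose (8 and 4 of 20 without preadipocyte replicate 5). Over all genes 26.4% fell and 24.8% rose. Slc7a5, a transporter of large neutral amino acids, stood at 67.8, 52.5 and 75.8 CPM in regular_diff, against 164, 99.1 and 158 CPM in preadipocyte (-1.09 ± 0.16). Shmt2 and Aldh1l2, of mitochondrial folate metabolism, fell by 1.09 ± 0.12 and 1.31 ± 0.16. Psat1, of serine synthesis, rose by 0.84 ± 0.17 and Nupr1, a stress-induced nuclear protein, by 2.07 ± 0.12; Atf4 (-0.16 ± 0.11) and Mthfd2 (-0.10 ± 0.11) were not called. Phgdh (-0.44 ± 0.14, call lost in 4 of 17), Asns (-0.37 ± 0.12, call lost in 4 of 17), Chac1 (0.32 ± 0.13, call lost in 7 of 17) and Trib3 (0.45 ± 0.12, call lost in 1 of 17) changed by small amounts.

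Receptors and secreted products of fat cells rose. Of 14 surface receptors tested 11 rose and 0 fell, with a median log2 fold change of 7.33, or 4.52 with 4 genes absent from preadipocyte set at their bounds. Adrb3, the beta-adrenergic receptor by which noradrenaline drives lipolysis in rodent fat cells, had 296, 218 and 339 counts in regular_diff and 0, 1 and 0 in preadipocyte, a ratio of 935-fold (95% counting interval 167 to 36962). The fatty acid receptors Ffar4 and Ffar2 were 255-fold (95% counting interval 45.4 to 10127) and 223-fold (95% counting interval 61.3 to 1848) higher. For these 3 genes each count in preadipocyte decides the ratio, and the single counts of Adrb3 and Ffar4 were in replicate 5. Adipor2, an adiponectin receptor, stood at 396, 398 and 408 CPM in regular_diff, against 58.8, 66.3 and 73.7 CPM in preadipocyte (2.60 ± 0.11), and Ghr, the growth hormone receptor, rose by 1.42 ± 0.10. Among secreted factors 10 of 13 tested rose and 0 fell. Adipoq, for the hormone adiponectin, stood at 8848, 8754 and 8690.2 CPM in regular_diff, against 6.48, 79.9 and 7.11 CPM in preadipocyte (8.16 ± 0.85, and 10.30 ± 0.17 without preadipocyte replicate 5). Agt, angiotensinogen, stood at 1215, 1036 and 1199.7 CPM in regular_diff, against 19.4, 33.5 and 18.1 CPM in preadipocyte (5.61 ± 0.17). Angptl4, an inhibitor of lipoprotein lipase, stood at 871, 863 and 864 CPM in regular_diff, against 188, 196 and 190.0 CPM in preadipocyte (2.18 ± 0.11), and Vegfb rose by 0.70 ± 0.11.

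The cells were labelled white adipocytes. Of 19 listed genes associated with brown and beige fat 8 were measured and 5 passed the filter on low counts, of which 5 rose (6 and 0 of 6 without preadipocyte replicate 5). Cox7a1, a cytochrome oxidase subunit of heart, muscle and brown fat, stood at 131, 89.9 and 105 CPM in regular_diff, against 0, 3.10 and 3.88 CPM in preadipocyte (5.62 ± 0.36, or 4.93 without preadipocyte replicate 4 and 6.21 without preadipocyte replicate 6). Cox8b, its counterpart in complex IV, had 131, 91 and 123 counts in regular_diff and 2, 1 and 0 in preadipocyte, a ratio of 126-fold (95% counting interval 42.8 to 614), and its fitted log2 fold change was 6.78, or 7.50 without preadipocyte replicate 4. Kcnk3, a potassium channel of brown fat, rose by 4.88 ± 0.22. The proton carrier relative Ucp2 had the smallest rise of the list, 1.82 ± 0.11. Elovl3, an elongase of brown fat, had 6, 0 and 3 counts in regular_diff and 0 in preadipocyte. Ucp1, Cidea, Dio2, Ppargc1a and Prdm16, the defining genes of thermogenic fat, were not analysed here, so the rises of this list do not bear on them.

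Fibrillar collagen genes mostly fell, while those of collagen type VI rose and those of type IV split. Of 25 genes of fibrillar collagens and their processing 15 fell and 8 rose (median -1.0), and the list took 1.37, 1.45 and 1.38% of all counts in the regular_diff libraries, against 2.74, 2.60 and 2.57% in the preadipocyte libraries. Col1a2, of type I collagen, stood at 3826, 4072 and 3928 CPM in regular_diff, against 10121, 9599 and 9825 CPM in preadipocyte (-1.32 ± 0.09), and Col3a1 fell by 0.97 ± 0.10. Lox, which cross-links collagen, stood at 189, 224 and 208 CPM in regular_diff, against 806, 838 and 867 CPM in preadipocyte (-2.01 ± 0.10). Type VI collagen, a major matrix protein of fat tissue, rose: Col6a1 by 0.43 ± 0.10, Col6a2 by 0.43 ± 0.10 and Col6a3 by 0.74 ± 0.11. Among enzymes that modify collagen, in contrast to Lox, Plod1 rose by 1.0 ± 0.10 and P4ha2 by 0.66 ± 0.14, while Plod2 changed by 1.21 ± 0.24, call lost in 1 of 17 and Plod3 by 0.37 ± 0.10, call lost in 1 of 17, and Col5a3 rose by 0.65 ± 0.10. Of 16 basement membrane genes 8 rose and 5 fell (8 and 7 of 17 without preadipocyte replicate 5). Col4a1 and Col4a2, which are transcribed side by side, rose by 0.83 ± 0.10 and 0.76 ± 0.10, Nid1, nidogen, by 0.70 ± 0.10 and Lamb1 by 0.45 ± 0.10. Col15a1 stood at 58.1, 50.2 and 63.6 CPM in regular_diff, against 2.99, 3.10 and 5.17 CPM in preadipocyte (3.94 ± 0.26), while Agrn, agrin, fell by 1.80 ± 0.14. Lama5, a laminin chain, fell by 1.64 ± 0.42, Col4a5 by 1.47 ± 0.13, Lamb2 by 0.81 ± 0.15 and Col18a1 by 0.46 ± 0.12; Lama4 changed by 0.34 ± 0.10, call lost in 1 of 17, and Lamc1 was not called (-0.11 ± 0.15).

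**Figure D5:**
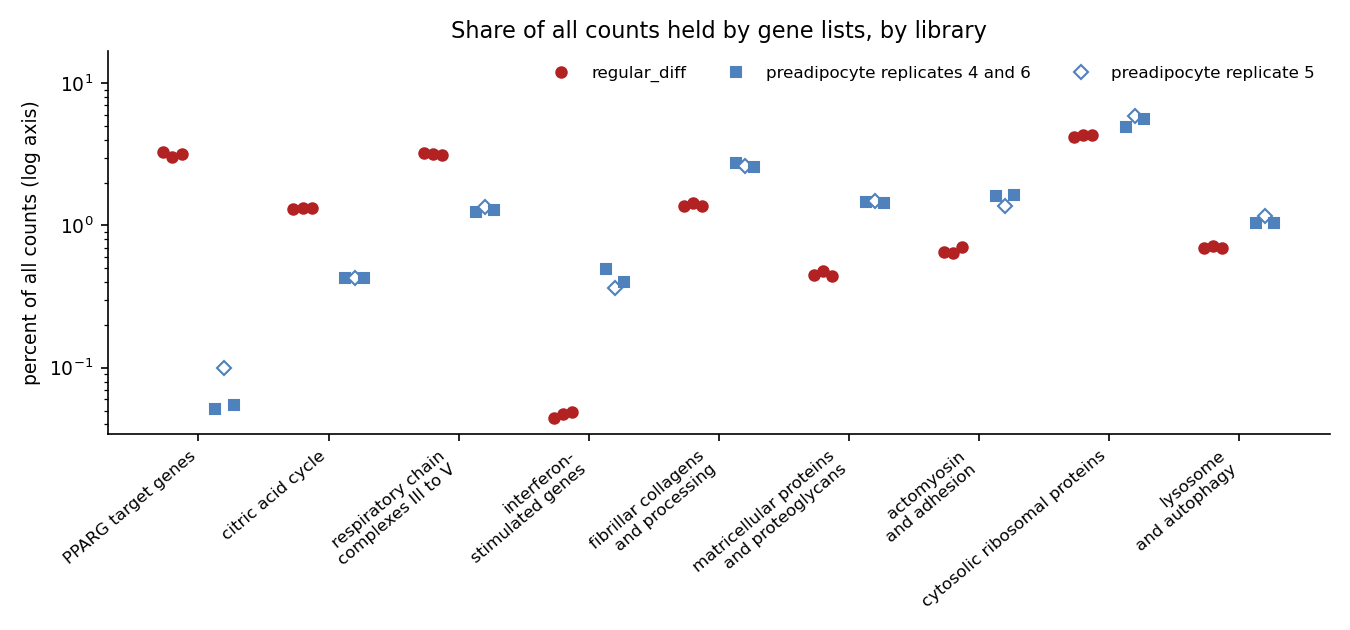
Percent of all counts that each of 9 gene lists took in each library (logarithmic axis), with regular_diff libraries as red circles left of the preadipocyte libraries, which are blue squares for replicates 4 and 6 and an open diamond for replicate 5. The groups do not overlap for any of the 9 lists; interferon-stimulated genes take 0.0441, 0.0471 and 0.0485% in regular_diff against 0.491, 0.364 and 0.403% in preadipocyte, and in the PPARG target list preadipocyte replicate 5 lies above the others of its group.

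Glycoproteins and proteases that remodel the matrix fell. Of 15 matricellular proteins and proteoglycans 11 fell and 2 rose (12 and 2 of 16 without preadipocyte replicate 5), and their share was 0.449, 0.477 and 0.441% in the regular_diff libraries, against 1.47, 1.49 and 1.45% in the preadipocyte libraries. Thbs1, thrombospondin 1, stood at 55.1, 41.2 and 53.8 CPM in regular_diff, against 359, 265 and 319 CPM in preadipocyte (-2.64 ± 0.16), and Postn, periostin, fell by 1.58 ± 0.27. Spp1, osteopontin, changed by -2.59 ± 0.82, call lost in 6 of 17, Prelp, a small proteoglycan, rose by 0.42 ± 0.11, and Dcn, decorin, was not called (-1.37 ± 0.80). Of 16 proteases and inhibitors 12 fell and 2 rose (13 and 3 of 17 without preadipocyte replicate 5; median -2.06). Mmp2, a gelatinase, stood at 476, 369 and 416 CPM in regular_diff, against 1560.0, 1611 and 1704 CPM in preadipocyte (-1.95 ± 0.11), and Mmp14, the membrane protease that activates it, fell by 1.57 ± 0.13. Their inhibitors fell as well. Timp3 stood at 5.45, 3.75 and 2.31 CPM in regular_diff, against 41.4, 40.3 and 53.6 CPM in preadipocyte (-3.53 ± 0.31), Timp1 fell by 2.29 ± 0.18 and Timp2 by 2.17 ± 0.11. Timp4, the inhibitor that fat cells secrete, was not tested, with 9, 11 and 16 counts in regular_diff and 0, 0 and 1 in preadipocyte. Mmp19, a protease of the same family, changed by 0.60 ± 0.18, call lost in 1 of 17.

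Genes of the contractile cytoskeleton fell. Of 27 actomyosin and adhesion genes 23 fell and 3 rose (25 and 3 of 28 without preadipocyte replicate 5; median -1.24), and the list took 0.651, 0.637 and 0.700% of counts in the regular_diff libraries, against 1.61, 1.38 and 1.63% in the preadipocyte libraries. Tpm1, a tropomyosin, stood at 183, 178 and 194 CPM in regular_diff, against 1005, 754 and 1003 CPM in preadipocyte (-2.31 ± 0.12), with preadipocyte replicate 5 the lowest of its group. Tagln, for the actin-bundling SM22, fell by 2.84 ± 0.28, Zyx, of focal adhesions, fell by 2.0 ± 0.12 and Vcl, vinculin, by 0.51 ± 0.11. Itga7, a laminin-binding integrin, rose instead, with 76.8, 86.2 and 75.2 CPM in regular_diff against 2.49, 4.96 and 0.646 CPM in preadipocyte (4.83 ± 0.27, and 5.46 ± 0.32 without preadipocyte replicate 5). Actb (-0.66 ± 0.23) lost its call in 5 of 17 alternatives. Myh10, a non-muscle myosin, rose by 0.87 ± 0.14, while Myl6 (0.51 ± 0.18, call lost in 6 of 17) and Itga5 (-1.69 ± 0.48, call lost in 5 of 17) changed. Myh9 was not called in the main fit (-1.12 ± 0.42) but was called in 5 of 17 alternatives. It fell by 1.42 ± 0.38 without preadipocyte replicate 5. Genes of stromal progenitors fell in 14 of 15 cases with 0 rises: Pdgfrb stood at 81.7, 82.4 and 107 CPM in regular_diff, against 243, 183 and 277 CPM in preadipocyte (-1.37 ± 0.15), Twist1, a mesenchymal factor, fell by 0.92 ± 0.11, and Cd44, the hyaluronan receptor, by 2.46 ± 0.29. Eng, endoglin, fell by 1.56 ± 0.39; Dlk1, which encodes Pref-1, changed by -0.90 ± 0.29, call lost in 2 of 17, Tbx15 by -0.63 ± 0.25, call lost in 6 of 17, and Ly6a, the antigen Sca-1, was not called (-1.09 ± 0.74). Of 8 genes of caveolae, the membrane pits abundant in fat cells, 7 rose and 0 fell: Cav1 stood at 2044, 1749 and 2088 CPM in regular_diff, against 344, 319.6 and 362 CPM in preadipocyte (2.52 ± 0.13), and Cavin2 rose by 1.92 ± 0.12.

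Genes of DNA replication and mitosis fell, 19 of 26 tested against 1 rise, with a median of -1.16 (20 and 2 of 27 without preadipocyte replicate 5). Ccnd1, cyclin D1 of the G1 phase, stood at 52.0, 40.5 and 60.2 CPM in regular_diff, against 354, 263 and 372 CPM in preadipocyte (-2.68 ± 0.19). Top2a, of mitotic chromosomes, stood at 18.8, 20.2 and 15.6 CPM in regular_diff, against 51.4, 58.2 and 76.2 CPM in preadipocyte (-1.76 ± 0.24), Mcm2, of the replicative helicase, fell by 1.51 ± 0.16 and Ccna2, cyclin A2, by 1.96 ± 0.29. Pcna, the sliding clamp, changed by -0.37 ± 0.13, call lost in 5 of 17. The rise, of Ccne2 (1.93 ± 0.63), lost its call in 2 of 17 alternatives, and Mki67 was not called with preadipocyte replicate 5 (-0.53 ± 0.27) unless scaled by the library total alone, but was called without it (-0.76 ± 0.28). Inhibitors of the cycle split. Cdkn2c, which encodes p18, an inhibitor of CDK4 and CDK6, stood at 130.1, 129 and 163 CPM in regular_diff, against 31.9, 17.3 and 34.2 CPM in preadipocyte (2.33 ± 0.19), and Rb1, the retinoblastoma protein, rose by 1.92 ± 0.22. Cdkn1a, which encodes p21 and is a p53 target, fell by 0.47 ± 0.11, as did Ccng1 by 0.84 ± 0.13 and Bax by 1.43 ± 0.17. Btg2, another p53 target, rose by 0.95 ± 0.15; Cdkn1b, which encodes p27, changed by -0.76 ± 0.23, call lost in 1 of 17 and Rbl2, which encodes p130, by 0.49 ± 0.18, call lost in 4 of 17. Mdm2, the p53 ligase, stood at 3516, 3342 and 3348 CPM in regular_diff and 3745, 3154 and 3764 CPM in preadipocyte and was not called (-0.06 ± 0.09). In this list of 21, 4 rose and 12 fell.

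Of 25 cytosolic ribosomal protein genes listed, which are a part of the family, 24 were tested and 14 were not called. Among the 24, 8 fell and 2 rose, against 26.4% and 24.8% of all genes, with a median log2 fold change of -0.16. Without preadipocyte replicate 5, 9 fell and 3 rose, and 11 fell and 1 rose when scaled by the library total alone. The 24 genes took 4.21, 4.34 and 4.31% of all counts in the regular_diff libraries, against 4.92, 5.88 and 5.58% in the preadipocyte libraries. Rplp0 stood at 3205, 3796 and 3086 CPM in regular_diff, against 4042, 5483 and 4369.6 CPM in preadipocyte (-0.46 ± 0.11), Rplp2 rose by 0.73 ± 0.13, and Rpl3 was not called (-0.07 ± 0.10). Ribosomal protein genes have many copies in the genome, so their counts are uncertain. Rps6 changed by 0.39 ± 0.11, call lost in 1 of 17. Rps3 was not called in the main fit (-0.87 ± 0.33) but was called in 6 of the 17 alternatives. Myc rose by 1.17 ± 0.16 and Eif4ebp1, a brake on cap-dependent translation, by 1.16 ± 0.11, but of 18 genes of ribosome biogenesis 3 rose and 4 fell (3 and 3 of 18 without preadipocyte replicate 5). Nop16 rose by 0.66 ± 0.17, and Npm1, nucleophosmin, changed by -1.31 ± 0.45, call lost in 7 of 17 (-0.64 ± 0.33 without preadipocyte replicate 5).

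In the secretory pathway 8 of 18 genes rose and 2 fell, which became 4 rises and 7 falls when scaled by the library total alone, so the list had no direction that held under both. Xbp1, the factor of the unfolded protein response, kept its rise under both scalings, with 535, 572 and 560.5 CPM in regular_diff against 132, 141 and 126 CPM in preadipocyte (2.06 ± 0.10), and so did Ero1l, the disulphide oxidase that aids adiponectin release (1.74 ± 0.23). Pdia3 fell by 1.02 ± 0.25 and Dnajb11 by 0.65 ± 0.12, and Hspa5, the chaperone BiP, changed by 0.26 ± 0.10, call lost in 5 of 17. Of 31 proteasome subunits 7 rose and 2 fell, against 24.8% and 26.4% of all genes. The counts were 8 and 2 of 31 without preadipocyte replicate 5, and 4 and 5 of 31 under the other scaling. Psma1 stood apart from the rest at 2.50 ± 0.32. Psma3 changed by -0.71 ± 0.29, call lost in 9 of 17 and Psmc3 by -0.31 ± 0.11, call lost in 4 of 17. Psmb5 (0.24 ± 0.13) and Psmd1 (0.21 ± 0.10) were not called in the main fit, though Psmd1 was called in 4 of 17 alternatives. Lysosome and autophagy genes fell, 14 of 23 against 1 rise (13 and 2 of 23 without preadipocyte replicate 5), with shares of 0.700, 0.715 and 0.690% in the regular_diff libraries, against 1.04, 1.16 and 1.04% in the preadipocyte libraries. Ctsk, a collagen-degrading cathepsin, stood at 43.0, 51.0 and 40.5 CPM in regular_diff, against 122, 98.5 and 122 CPM in preadipocyte (-1.36 ± 0.16). Ctsd, cathepsin D, fell by 0.38 ± 0.11, Tfeb, the master factor of lysosomal genes, changed by 1.4 ± 0.32, call lost in 1 of 17, and Sqstm1 (-0.10 ± 0.10) and Lipa (-0.16 ± 0.36) were not called. Clock genes rose in 8 of 13 cases with 0 falls: Per3 rose by 1.95 ± 0.30, Nr1d1, which encodes REV-ERB-alpha, by 1.08 ± 0.17 and Dbp by 0.85 ± 0.16, while Arntl, the activator of the loop, was not called (-0.01 ± 0.24). Bhlhe40 rose by 0.80 ± 0.14, and Per2 (0.66 ± 0.45) and Nr1d2 (-0.23 ± 0.38) were not called. The hour of harvest is not given in the sources used here.

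Motif counts were also made for other lists, and all matches are descriptions of letters only. The ERR-alpha half-site TCAAGGTCA on either strand was present in 1 of 27 promoters of citric acid cycle genes, 0 of 14 of fat oxidation genes, 0 of 32 of complex I genes and 1 of 32 of complexes III to V, against 0.423% of all promoters. The direct repeat of AGGTCA with any 1 base between its 2 copies, the letters of a PPAR response element, was present in 0 of 13 promoters of PPARG target genes, against 0.0396% of all. These promoters cover 9 of the 16 measured members. At a share that low, 0 matches is the likely outcome for any list of this size, so the count does not bear on these genes. The same limit holds for the counts of 0 with the half-site. The letters TTTGAA of the cell cycle homology region were present in 7 of 23 promoters of replication and mitosis genes (30.4%), against 17.9% of all.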

How the data were processed

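The comparison was of 6 libraries of 3T3-L1 cells, 3 of regular_diff and 3 of preadipocyte cells. The other 6 libraries of the series were used in the filter on low counts, the scaling and the estimate of spread. Per the labels' protocols, libraries were made from 30 ng of RNA by MARS-seq, a method that tags and counts transcript 3′ ends with unique molecular identifiers. The authors deposited a table of counts per gene, whole numbers without normalization, and the submitters' processing notes name cutadapt, HTSeq, DESeq2 and the build mm10 without versions. A further 24 per-sample columns of the table were not used. Total counts per library, 1387854 to 1836626 in the 6, limit precision for genes of few counts, and counting intervals cover counting error only.

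The test was that of edgeR 4.0.16 (R 4.3.3) on the counts: trimmed mean of M values, filterByExpr by group, and a robust quasi-likelihood fit of 4 group means over 12 libraries, with Benjamini-Hochberg adjustment over the 9519 genes tested and a threshold of 0.05. CPM used the scaled library sizes. The biological coefficient of variation was 0.126, and 0.107 without preadipocyte replicate 5. Genes with 0 counts in a group have a bound from 3 counts over that group, and those with 1 to 3 counts have an exact 95% counting interval. The text names genes marked in each list, related genes, the 10 largest rises and 10 largest falls, up to 4 called members of each list and those called against its majority, and genes absent from a group; a few others were chosen after their values were seen, and some genes under this rule are not reported here. Members and lists were chosen with earlier results of these data known. Alternatives were other scalings, filters, DESeq2 1.42.0, fewer libraries, a replicate block and thinned counts.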

Additional observations from a re-analysis of the deposited data

How the results depend on the processing

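The counts of called genes held within 1.5 times of 4873 in all 17 alternative fits. Leaving out each of the 6 libraries in turn gave 4341 to 4904 calls, 2092 to 2332 of them higher and 2238 to 2572 lower, with 2447 to 2634 of at least 2-fold. DESeq2 1.42.0 called 4365 genes, its size factors in edgeR 4829, and counts thinned to 669007 per library 3524. A fit of only the 6 libraries compared called 4727 of 9100 genes tested. Of the named genes 337 were called, 291 of them in every alternative, and 0 reversed. Thinning moved the log2 fold change of Zbtb16 to 6.15, the log2 fold change of Kcnk3 to 6.11 and the log2 fold change of Cd44 to -3.08. Scaling by the library total alone changed the balance of rises and falls in the lists of endoplasmic reticulum folding and the proteasome. It made rises and falls even in the list of MHC class I and the immunoproteasome. With ribosomal protein genes left out of the denominator, the share of counts (regular_diff minus preadipocyte) moved by more than the replicate spread, to 3.47 percentage points for PPARG targets, 0.982 for the citric acid cycle, 2.05 for complexes III to V, -1.48 for fibrillar collagens, -1.19 for matricellular proteins, -1.03 for actomyosin genes and -0.460 for lysosomal genes, because the denominator was smaller. With a minimum fold 4 times higher than 32, the median excess in preadipocyte replicate 5 was 0.766%, again over genes chosen by low values in preadipocyte replicates 4 and 6. A fit with the replicate number as a block called 4752 genes; same-numbered libraries deviated with correlations of -0.009, 0.117 and 0.062, so the numbers were not taken to pair the samples. Genes of few counts, such as receptors absent from preadipocyte, are limited by depth.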
